A study of Homo sapiens with 15 samples.

Results

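Notch signalling genes were described across 5 human ovarian cancer lines. The set held 10 genes, which were chosen by symbol from the core of the pathway at a point when results of these 5 lines were already known, the near loss of HEY2 in one line among them. All 10 had a row among the 16604 genes of the table. They were 3 ligands (JAG1, JAG2 and DLL1), 3 receptors (NOTCH1, NOTCH2 and NOTCH3) and 4 genes for transcription factors that act downstream (HES1, HES4, HEY1 and HEY2). As the choice was made with the levels in these lines in view, the values of the 10 genes are given as a description, with a standard error (SE) and without a p-value.

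RNA was sequenced from 15 samples, 3 biological replicates of each of 5 lines. Ovcar4Parental is the established OVCAR4 cell line, a model of high-grade serous ovarian cancer, and is given in the labels as sensitive to carboplatin and cisplatin. Ov4Cis came from it by culture in rising cisplatin and Ov4Carbo by culture in rising carboplatin, and each is labelled resistant to its drug. From Ov4Carbo, 2 further lines were each raised from a single cell, Ov4Carbo4 and Ov4Carbo7, so each stands for 1 clone, and both are labelled carboplatin resistant. All lines grew in the same serum-containing medium. The labels name 1 selected line per drug, so a drug and a line cannot be told apart.

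Notch receptors are cell surface proteins that bind ligands of the Jagged and Delta families on neighbouring cells. Binding lets an ADAM protease and then gamma-secretase cut the receptor, and the freed intracellular part enters the nucleus, joins the DNA-binding protein RBPJ and a Mastermind coactivator, and turns on target genes. HES and HEY genes are the best known of these targets and encode basic helix-loop-helix repressors. In high-grade serous ovarian cancer NOTCH3 is known as a recurrently amplified gene.

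The stretches around the start sites of HEY2, HES1 and HES4 are shown because these 3 target genes carry the same short letters and yet took different courses across the lines. RefSeq promoter windows (GRCh38.p14, 250 bases before to 50 after the start) were matched by symbol for 8 of the 10 genes. Capitals mark TGGGAA, the core of the sequence that RBPJ binds, or TTCCCA, the same letters on the other strand. HEY2 lies on chromosome 6 at chr6:125749382-125749634, plus strand, and the stretch runs from 250 bases before the start to 3 after it. HES1 lies at chr3:194136028-194136147, plus strand, and HES4 at chr1:1000098-1000217, minus strand, each shown for the 120 bases before the start.
HEY2: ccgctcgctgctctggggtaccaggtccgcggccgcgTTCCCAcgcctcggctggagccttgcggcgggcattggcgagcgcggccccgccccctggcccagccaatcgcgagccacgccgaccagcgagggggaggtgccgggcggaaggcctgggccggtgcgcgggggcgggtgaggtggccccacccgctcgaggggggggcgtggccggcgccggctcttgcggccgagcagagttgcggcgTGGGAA
HES1: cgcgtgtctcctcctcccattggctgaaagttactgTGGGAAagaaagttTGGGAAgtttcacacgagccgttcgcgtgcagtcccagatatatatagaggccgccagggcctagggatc
HES4: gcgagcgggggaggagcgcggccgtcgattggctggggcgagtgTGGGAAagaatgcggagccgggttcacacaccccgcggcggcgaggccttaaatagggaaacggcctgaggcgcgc

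The 6 letters occurred in the windows of 3 of the 8 matched genes, which were these 3 target genes, and in none of the 5 matched receptor and ligand windows. Both strands were searched. HEY2 held them at positions -213 and -3 from the start, HES1 at -84 and -70, and HES4 at -76. The longer form GTGGGAA, which contains the 6 letters, occurred 2 times in HEY2 and 1 time each in HES1 and HES4. Among 11161 promoter windows of genes in the table, 21.6% held TGGGAA on either strand, 3.09% held it 2 or more times, and 5.68% held GTGGGAA. Of the 60 other pathway genes described further on, 47 had a window and 7 held TGGGAA, HEYL among them with 2 copies. A match is a run of letters only and says nothing of whether a factor binds there.

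Levels are in log2 RPKM, a read density corrected for gene length and library size, so levels of different genes can be set beside each other. The samples had been normalized before deposit and had like medians but unlike low ends. The 1st percentile ran from -5.71 in Ov4Carbo replicate 1 to -4.47 in Ov4Cis replicates 1 and 2. The median was 2.77 in every sample, the lowest value lay between -8.18 and -7.68, and the read depth is unknown. Ov4Carbo was the most uneven line, and its replicate 1 the furthest from its own line. The mean root-mean-square distance to the other replicates was 0.74 log2 units for replicate 1, 0.67 for replicate 2 and 0.64 for replicate 3. In the other lines this distance was 0.33 to 0.52. Replicates 2 and 3 lay at 1.13 and 1.07 from the Ov4Carbo7 samples, and replicate 1 was nearer, at 0.89. Sample titles fall in 2 number series, of which one holds that replicate with all Ov4Carbo4 and Ov4Carbo7 samples, so a difference between the series and a difference of these 2 lines from the parental line cannot be told apart except through Ov4Carbo. A model term for the title series, used further on, thus rests on replicate 1 of Ov4Carbo against the other replicates of that line. Of 10 markers of serous ovarian cancer, 5 had a line mean of log2 RPKM 0 or more in Ov4Cis and 8 or 9 in the other lines, with PAX8 between 5.85 and 6.74 log2 RPKM in the 5 line means, while WT1 was at -1.52 or lower in every line. Leukocyte markers, 2 of 5 analysed, summed to 0.67 to 1.96 RPKM. Of 5 endothelial markers 3 were analysed, and CDH5 alone gave line means from 2.15 to 5.13 log2 RPKM, highest in Ov4Cis and Ov4Carbo4. Fibroblast markers, 3 of 5 analysed, summed to 3.93 to 14.6 RPKM. What part these markers have in the results was not tested. In such bulk samples, fewer cells of a type and less RNA per cell cannot be told apart.

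**Figure D1:**
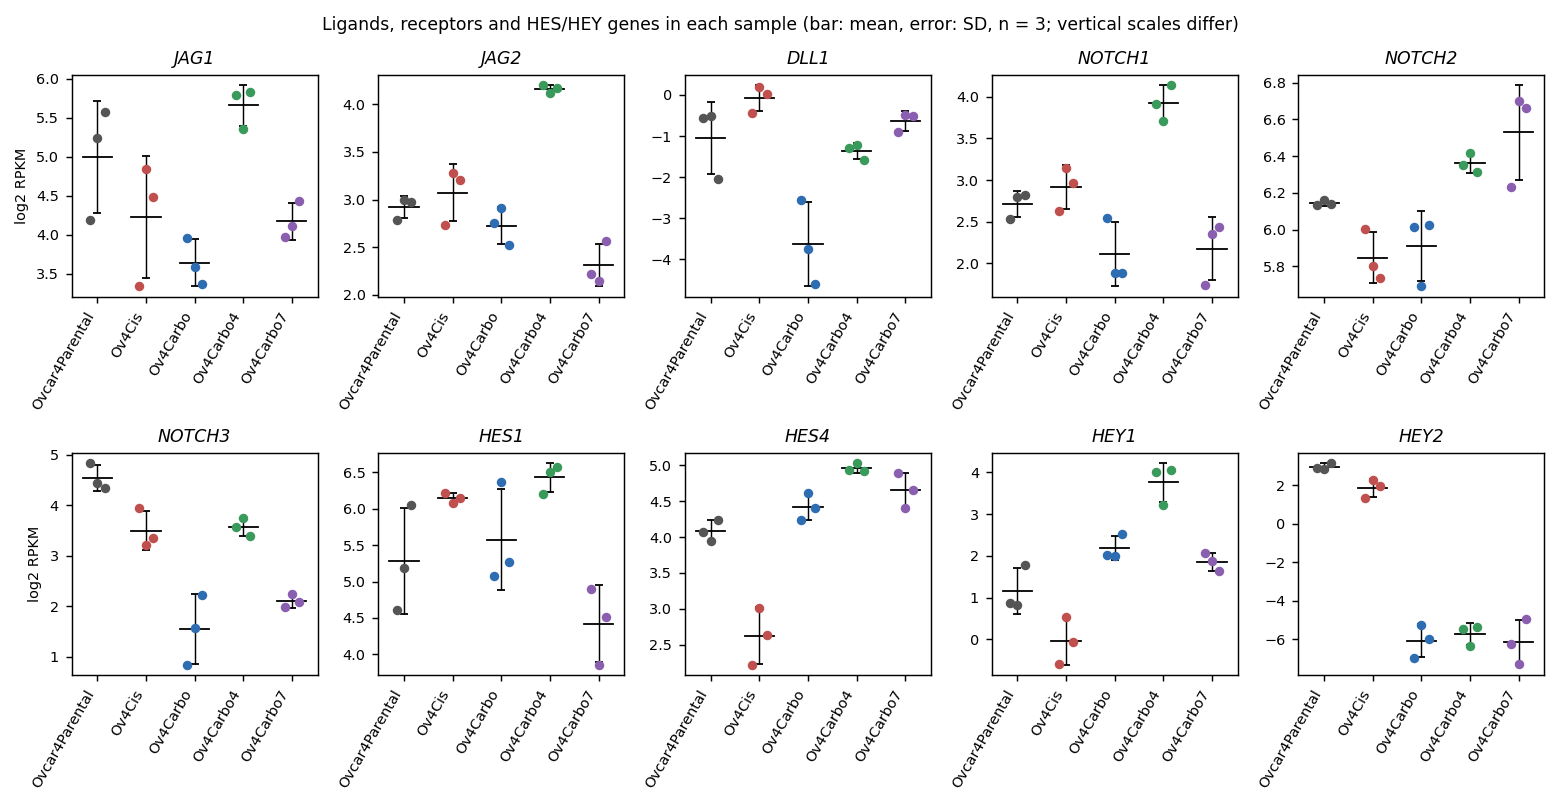
Level of each of the 10 genes (vertical axis, log2 RPKM, a separate scale per gene) in the 3 samples of each line (points), with the mean (bar) and SD (error bar). HEY2 is near the lowest values of the table in all 9 samples of the 3 carboplatin-selected lines, and Ov4Carbo4 has the highest line mean for JAG1, JAG2, NOTCH1, HES1, HES4 and HEY1.

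HEY2 was the gene that differed most. It was well detected in the parental line, at 2.91, 2.84 and 3.17 log2 RPKM in replicates 1 to 3, and in Ov4Cis at 1.33, 2.27 and 1.98. In Ov4Carbo the values were -7.00, -5.27 and -6.00, in Ov4Carbo4 -5.45, -6.37 and -5.38, and in Ov4Carbo7 -6.23, -7.30 and -4.95. The 9 samples selected in carboplatin were thus close to the lowest values of the table and did not overlap the 6 samples of the other 2 lines. The 3 carboplatin lines overlapped each other throughout.

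A gene was called when the fit over all 16604 genes (limma, a linear model with shared variance estimates) gave an adjusted p under 0.05 and a difference of at least 1 log2 unit. HEY2 was called lower than the parental line in Ov4Carbo (-9.06, SE 0.54), Ov4Carbo4 (-8.71, SE 0.54) and Ov4Carbo7 (-9.13, SE 0.54), all in log2 RPKM. The size of a fall to so low a level depends on how the authors treated genes with few or no reads. On a log2(RPKM + 1) scale, where changes of low genes come out smaller, the differences were -3.12 in each of the 3 lines. Its difference in Ov4Cis was -1.11 (SE 0.54) and was not called, although no Ov4Cis value reached the parental ones. Fitted on these 2 lines alone, it was called.

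HEY2 is overlapped by an antisense RNA gene, AL365259.1, and the counting is not stated to use strand, so reads of the pair cannot be told apart. That gene followed the same course, with line means of -0.35 ± 0.41 log2 RPKM in the parental line and -0.57 ± 0.62 in Ov4Cis (SD, n = 3), against -7.11 ± 0.66 in Ov4Carbo, -6.56 ± 0.21 in Ov4Carbo4 and -7.23 ± 0.47 in Ov4Carbo7. The next genes on either side, which were looked at after the HEY2 values were seen, were not near the floor. HDDC2 lay between 2.44 and 4.10 log2 RPKM over the 5 line means and NCOA7 between 2.73 and 3.95. NCOA7 was lowest in Ov4Carbo4, and HDDC2 was highest in Ov4Carbo, where HEY2 was near the floor.

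HEY1 is a close relative of HEY2. Both were below the parental samples in Ov4Cis, while in Ov4Carbo and Ov4Carbo4 HEY1 was above them. Its 3 values were 0.87, 0.83 and 1.79 log2 RPKM in the parental line and -0.60, 0.53 and -0.06 in Ov4Cis. They were 2.03, 2.01 and 2.52 in Ov4Carbo, 4.01, 3.22 and 4.04 in Ov4Carbo4, and 2.06, 1.87 and 1.64 in Ov4Carbo7. Ov4Carbo4 lay above every other line and Ov4Cis below every other line, while Ov4Carbo7 overlapped both the parental line and Ov4Carbo.

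HEY1 was called higher in Ov4Carbo4, by 2.60 (SE 0.33, a 6.05-fold difference), and higher in Ov4Carbo, by 1.02 (SE 0.33). In Ov4Cis it was called lower, at -1.20 (SE 0.33), and in Ov4Carbo7 the difference of 0.70 (SE 0.33) was not called. Both smaller calls were close to the threshold. The one in Ov4Cis ended without parental replicate 3 (-0.89) or without Ov4Cis replicate 1 (-0.93), and the one in Ov4Carbo ended without parental replicate 1 (0.88), parental replicate 2 (0.86) or Ov4Carbo replicate 3 (0.86). Without parental replicate 3, Ov4Carbo7 was itself called, at 1.01. On the log2(RPKM + 1) scale neither smaller difference was called, at -0.71 in Ov4Cis and 0.77 in Ov4Carbo, and neither was called when only the 2 lines compared were fitted.

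HES1, a target in many tissues, was the most abundant of the 4 downstream genes in the parental line. Its parental values were uneven at 4.6, 5.19 and 6.05 log2 RPKM. Ov4Cis had 6.21, 6.07 and 6.15, Ov4Carbo 5.08, 6.36 and 5.27, Ov4Carbo4 6.2, 6.51 and 6.58, and Ov4Carbo7 4.89, 3.86 and 4.51. In the order of line means every neighbouring pair of lines overlapped, yet the extremes were apart, as all Ov4Carbo7 values lay below all those of Ov4Carbo4. The difference between these 2 single-cell lines was -2.01 (SE 0.38), a 4.01-fold difference.

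Against the parental line, HES1 was called in Ov4Carbo4 only, at 1.15 (SE 0.38). That call ended when parental replicate 1 (0.81), parental replicate 2 (1.10), Ov4Carbo4 replicate 2 (1.11) or Ov4Carbo4 replicate 3 (1.07) was left out, and with a term for the title series (1.88). Leaving out other parental samples gained calls, in Ov4Cis without replicate 3 (1.25 against 0.86) and in Ov4Carbo7 without replicate 1 (-1.20 against -0.86).

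HES4, a HES1 relative, separated Ov4Cis from the rest. Its values were 2.22, 3.02 and 2.64 log2 RPKM in Ov4Cis and 4.07, 3.94 and 4.25 in the parental line. Ov4Carbo stood at 4.25, 4.62 and 4.41, Ov4Carbo4 at 4.94, 5.03 and 4.92, and Ov4Carbo7 at 4.89, 4.41 and 4.66. Every Ov4Cis sample was below every other sample. HES4 was called lower in Ov4Cis than in the parental line, at -1.46 (SE 0.19), and was not called in the carboplatin lines, with differences of 0.34 in Ov4Carbo, 0.88 in Ov4Carbo4 and 0.57 in Ov4Carbo7 (SE 0.19 each). With a term for the title series the Ov4Carbo4 difference was 1.15 and was called.

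The mix of downstream genes therefore differed by line. As shares of the summed RPKM of the 4 genes, HES1 made up 86.4% ± 4.0 in Ov4Cis, 58.7% ± 9.8 in the parental line and 42.7% ± 5.2 in Ov4Carbo7 (SD, n = 3). HES4 gave its largest share in Ov4Carbo7, between 46.7% and 53.9% in the 3 samples. HEY2 gave 12% ± 2.8 in the parental line, 4.6% ± 1.4 in Ov4Cis and no more than 0.0632% in any carboplatin-selected sample. HEY1 gave 10.7% ± 3.3 in Ov4Carbo4 and 3.36% ± 0.39 in the parental line. The summed level was 132 ± 11 RPKM in Ov4Carbo4 and 51.4 ± 12.1 in Ov4Carbo7, and the samples of these 2 lines did not overlap.

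**Figure D2:**
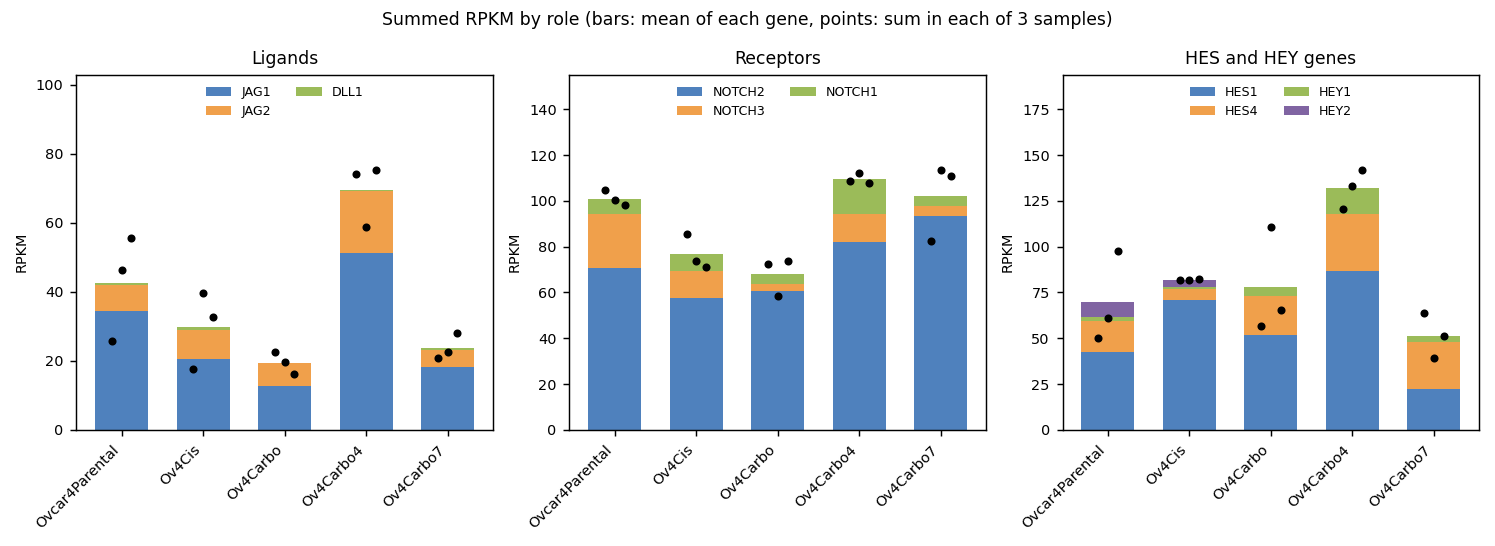
Summed RPKM (vertical axis, linear, from 0) of the ligands, the receptors and the HES and HEY genes in each line; coloured bars are the mean of each gene and points the sum in each of the 3 samples. NOTCH2 makes up most of the receptor total everywhere, and Ov4Carbo4 has the highest ligand total, between 58.8 and 75.4 RPKM.

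Among the receptors, NOTCH2 was the most abundant in all 15 samples and the least variable. Its line means ran from 5.85 ± 0.14 log2 RPKM in Ov4Cis to 6.53 ± 0.26 in Ov4Carbo7 (SD, n = 3), with 6.14 ± 0.01 in the parental line, and it was called in none of the 8 contrasts between lines. The values of each resistant line nevertheless lay apart from the parental ones. NOTCH2 has partial copies in the human genome (the NOTCH2NL genes), so its reads are uncertain. NOTCH2NLA, the one with a row, had line means of 0.50 to 1.08 log2 RPKM.

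NOTCH3 was lower than in the parental line in every resistant line. The parental values were 4.84, 4.45 and 4.35 log2 RPKM. Ov4Cis had 3.94, 3.21 and 3.35, Ov4Carbo4 3.58, 3.75 and 3.39, Ov4Carbo7 1.98, 2.25 and 2.07, and Ov4Carbo 0.84, 1.57 and 2.23. No resistant sample reached the lowest parental value, and Ov4Carbo and Ov4Carbo7 overlapped each other below the other 2 resistant lines.

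NOTCH3 was called lower in Ov4Carbo, at -3.0 (SE 0.29, an 8.0-fold difference), in Ov4Carbo7, at -2.45 (SE 0.29), and in Ov4Cis, at -1.05 (SE 0.29). The difference in Ov4Carbo4 was -0.98 (SE 0.29), just short of the limit of 1. The Ov4Cis call ended without parental replicate 1 (-0.90), Ov4Cis replicate 2 (-0.90) or Ov4Cis replicate 3 (-0.97), whereas Ov4Carbo4 was called without parental replicate 2 (-1.03), parental replicate 3 (-1.07) or Ov4Carbo4 replicate 2 (-1.06). With a term for the title series the Ov4Carbo7 difference was -1.38.

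NOTCH1 was highest in Ov4Carbo4, at 3.91, 3.72 and 4.15 log2 RPKM, above all other samples. The parental line had 2.53, 2.79 and 2.81, Ov4Cis 2.62, 3.15 and 2.96, Ov4Carbo 2.55, 1.88 and 1.88, and Ov4Carbo7 1.74, 2.35 and 2.43. It was called against the parental line in Ov4Carbo4, by 1.21 (SE 0.23). With a term for the title series that difference was 0.54 and not called, while Ov4Carbo7 was then called lower (-1.21 against -0.54). Genes beside NOTCH1 were looked at after its values were seen. SEC16A was at 6.06 in Ov4Carbo4 against 4.88 in the parental line, INPP5E at 3.29 against 2.26 and EGFL7 at 2.66 against 1.15. SEC16A and INPP5E were highest in Ov4Carbo4, whereas EGFL7 was highest in Ov4Cis (2.99). NALT1, low in every line, was at -1.45 against -1.38. The part of the locus in the NOTCH1 difference was not tested.

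The receptor mix differed by line. NOTCH3 gave 23.3% ± 3.6 of the summed RPKM of the 3 receptors in the parental line, 14.9% ± 2.8 in Ov4Cis and 10.9% ± 1.1 in Ov4Carbo4 (SD, n = 3). It gave 4.65% ± 1.99 in Ov4Carbo and 4.26% ± 0.50 in Ov4Carbo7. NOTCH1 reached 14% ± 2.4 in Ov4Carbo4, against 6.54% ± 0.89 in the parental line. The share of NOTCH2 ran from 70.1% ± 2.7 in the parental line to 91.3% ± 0.1 in Ov4Carbo7.

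JAG1, the most abundant of the 3 ligands, was uneven in the parental line (4.19, 5.24 and 5.57 log2 RPKM) and in Ov4Cis (3.34, 4.84 and 4.49). The single-cell lines were tighter, with 5.79, 5.36 and 5.84 in Ov4Carbo4 and 3.97, 4.12 and 4.43 in Ov4Carbo7. Ov4Carbo had the lowest line mean, from 3.96, 3.59 and 3.36. JAG1 was called lower in Ov4Carbo, at -1.36 (SE 0.39), and this call ended without parental replicate 2 (-1.24), parental replicate 3 (-1.08) or Ov4Carbo replicate 3 (-1.22), and when only these 2 lines were fitted. Without parental replicate 1 it was also called lower in Ov4Cis (-1.18 against -0.78) and Ov4Carbo7 (-1.23 against -0.83).

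JAG2 singled out Ov4Carbo4 with little spread. Its values there were 4.2, 4.12 and 4.17 log2 RPKM, and none of the other 12 samples went above 3.28. The parental line had 2.79, 3.0 and 2.98, Ov4Cis 2.73, 3.28 and 3.21, Ov4Carbo 2.75, 2.91 and 2.52, and Ov4Carbo7 2.22, 2.14 and 2.56. The difference of Ov4Carbo4 from the parental line was 1.24 (SE 0.16), the call holding in each fit that left out a sample.

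DLL1, a Delta ligand, was low throughout. Ov4Carbo was lowest, at -2.55, -3.74 and -4.60 log2 RPKM, below all samples of the other lines. The parental line had -0.56, -0.51 and -2.05, Ov4Cis -0.44, 0.19 and 0.03, Ov4Carbo4 -1.29, -1.21 and -1.59, and Ov4Carbo7 -0.91, -0.49 and -0.51. The difference of Ov4Carbo from the parental line was -2.59 (SE 0.47) and was called, but on the log2(RPKM + 1) scale it was -0.48 and not called. FAM120B overlaps DLL1 on the other strand and had line means of 3.07 to 3.32 log2 RPKM, well above DLL1, so some DLL1 reads are uncertain.

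**Figure D3:**
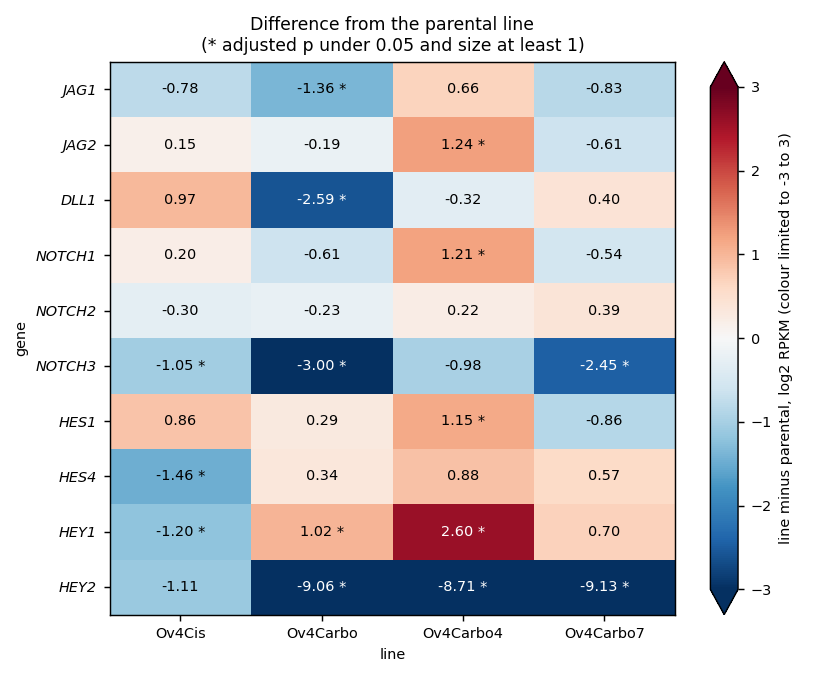
Difference of each resistant line from the parental line for the 10 genes (colour and printed number, log2 RPKM, colour limited to -3 to 3), with an asterisk for called genes. NOTCH3 and HEY2 are lower in all 4 columns, from -0.98 to -3.0 for NOTCH3, and NOTCH2 stays between -0.30 and 0.39.

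Counted over the 10 genes, 3 were called in Ov4Cis against the parental line, all lower, where 15.9% of all genes were called. In Ov4Carbo 5 were called, 1 higher and 4 lower (12.7% of all genes). Ov4Carbo4 had 5, of which 4 were higher and 1 lower (15.1%), and Ov4Carbo7 had 2, both lower (17.0%). The median difference of the 10 genes was -0.54, -0.42, 0.77 and -0.58 log2 units in the same order, against 0.04, 0.03, 0.07 and 0.02 for all genes. These 4 contrasts share the parental samples, and as the genes were chosen with them in view nothing further is read from the counts.

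The 2 lines from single cells parted from their source population in different ways. Against Ov4Carbo, Ov4Carbo4 had 6 of the 10 genes called, all higher, where 14.2% of all genes were called. These were both Jagged genes, DLL1, NOTCH1, NOTCH3 and HEY1. NOTCH3 was higher by 2.02 (SE 0.29), JAG1 by 2.02 (SE 0.39), NOTCH1 by 1.82 (SE 0.23), HEY1 by 1.57 (SE 0.33) and JAG2 by 1.43 (SE 0.16). DLL1 was higher by 2.27 (SE 0.47), or 0.35 and not called on the log2(RPKM + 1) scale, and with a term for the title series it was 1.19 and not called. Without replicate 1 of Ov4Carbo 6 of the 10 were called (16.2% of all genes), and without its replicate 2 HES1 was called too (1.25 against 0.86).

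In Ov4Carbo7 against Ov4Carbo, 2 of the 10 were called (13.3% of all genes). DLL1 was higher by 2.99 (SE 0.47), or 0.59 and not called on the log2(RPKM + 1) scale. HES1 was lower, at -1.15 (SE 0.38). The HES1 call ended without Ov4Carbo replicate 2 (-0.76), Ov4Carbo7 replicate 2 (-0.87) or Ov4Carbo7 replicate 3 (-1.20), with a term for the title series (-0.66), and when only these 2 lines were fitted. That term also gave a call for NOTCH3 (1.26 against 0.56) and moved DLL1 to 1.91. HEY2 stayed at the floor in both single-cell lines, where it differed from Ov4Carbo by 0.35 (SE 0.54) and -0.07 (SE 0.54).

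**Figure D4:**
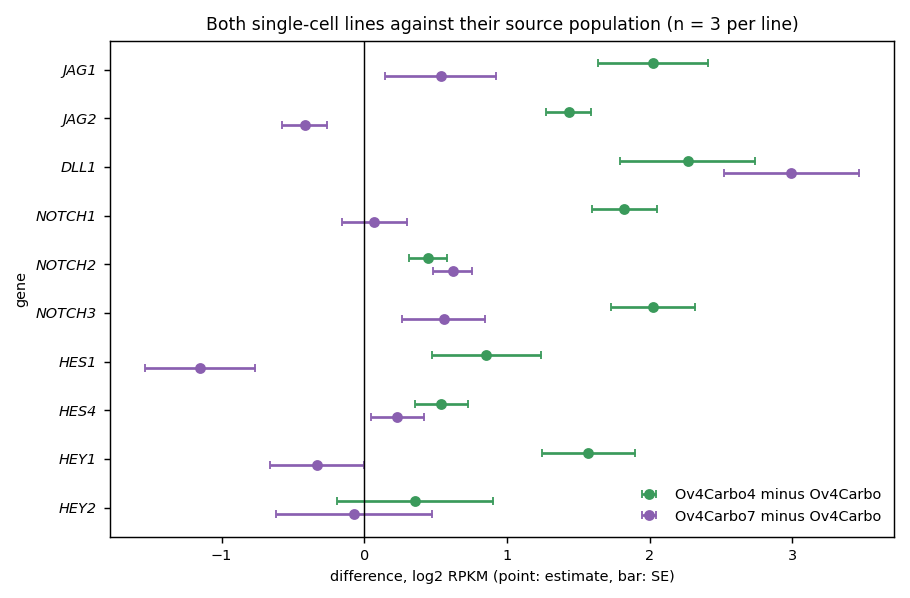
Difference of Ov4Carbo4 (green) and Ov4Carbo7 (purple) from Ov4Carbo for the 10 genes (horizontal axis, log2 RPKM), with the fitted estimate as a point and its SE as a bar. Ov4Carbo4 lies to the right for JAG1, JAG2, NOTCH1, NOTCH3 and HEY1, by 1.43 to 2.02, while Ov4Carbo7 lies between -0.42 and 0.56 for those genes.

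Set directly against each other, 6 of the 10 genes were called between the single-cell lines, all lower in Ov4Carbo7, where 20.9% of all genes were called. Besides HES1 these were HEY1 (-1.90, SE 0.33), JAG2 (-1.85, SE 0.16), NOTCH1 (-1.75, SE 0.23), JAG1 (-1.49, SE 0.39) and NOTCH3 (-1.47, SE 0.29). For each of the 6 no sample of one line reached those of the other. Both lines belong to one title series. The count was 6 in each of the 6 fits that left out a sample of either line (19.9% to 21% of all genes). NOTCH2 and HES4 differed by 0.17 (SE 0.13) and -0.31 (SE 0.19) and were not called.

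The last contrast set the cisplatin-selected line against the carboplatin-selected population. In Ov4Cis, 5 of the 10 were called against Ov4Carbo (13.8% of all genes), 3 higher and 2 lower. HEY2 was higher by 7.95 (SE 0.54), or 2.20 on the log2(RPKM + 1) scale, NOTCH3 by 1.95 (SE 0.29) and DLL1 by 3.56 (SE 0.47), or 0.84 and not called on that scale. HEY1 was lower, at -2.23 (SE 0.33), and HES4 at -1.80 (SE 0.19). NOTCH1 was called as well, at 1.03 against 0.81, without replicate 1 of Ov4Carbo. A term for the title series gave the same value and is the same check in this contrast, as it takes up that replicate. JAG1 was called without Ov4Cis replicate 1, at 1.03 against 0.59. The 2 HEY genes thus stood in opposite order in these lines, as HEY2 exceeded HEY1 in each Ov4Cis sample and HEY1 exceeded HEY2 in each Ov4Carbo sample.

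Some of the 10 genes moved together over the 15 samples. The highest Pearson correlations were 0.92 for NOTCH1 and JAG2 and 0.88 for HEY1 and HES4, and the lowest was -0.71 for HEY1 and HEY2. They are given as a description over samples that fall in 5 lines and share one normalization. By the same measure over all genes whose highest line mean was log2 RPKM 0 or more, HEY2 was most like ARMCX2 (0.99), MT1L (0.98) and MFAP2 (0.98), HEY1 most like GATA2-AS1 (0.94), TSTD2 (0.93) and RTKN (0.93), NOTCH3 most like DERL3 (0.94), NPR3 (0.94) and AJAP1 (0.93), and HES4 most like CALB1 (0.95), EVPL (0.95) and ZNF770 (0.94). ARMCX2 had line means of 3.10 in the parental line and 0.53 in Ov4Cis, against -6.99 in Ov4Carbo, -5.95 in Ov4Carbo4 and -6.11 in Ov4Carbo7. MT1L belongs to a family of near-identical metallothionein sequences, so its reads are uncertain.

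The other parts of the pathway were taken from a list of 70 genes written from general knowledge, of which 60 had a row. The list was written with earlier results of these data known, so adjusted p-values of genes picked from it are a description. A difference of any size among the 5 lines passed the moderated F-test of limma (adjusted p under 0.05) for 49 of the 60, or 81.7%, against 76.9% of all genes. With the fold limit, 11 of the 60 were called in Ov4Cis against the parental line (7 higher, 4 lower), 10 in Ov4Carbo (3 higher, 7 lower), 11 in Ov4Carbo4 (8 higher, 3 lower) and 18 in Ov4Carbo7 (8 higher, 10 lower). Those are 18.3%, 16.7%, 18.3% and 30.0% of the list, beside 15.9%, 12.7%, 15.1% and 17.0% of all genes. On the log2(RPKM + 1) scale the counts were 4, 4, 3 and 5, where 7.58%, 4.76%, 6.34% and 7.79% of all genes were called. The list's median differences were 0.15, 0.03, 0.25 and -0.04 log2 units.

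**Figure D5:**
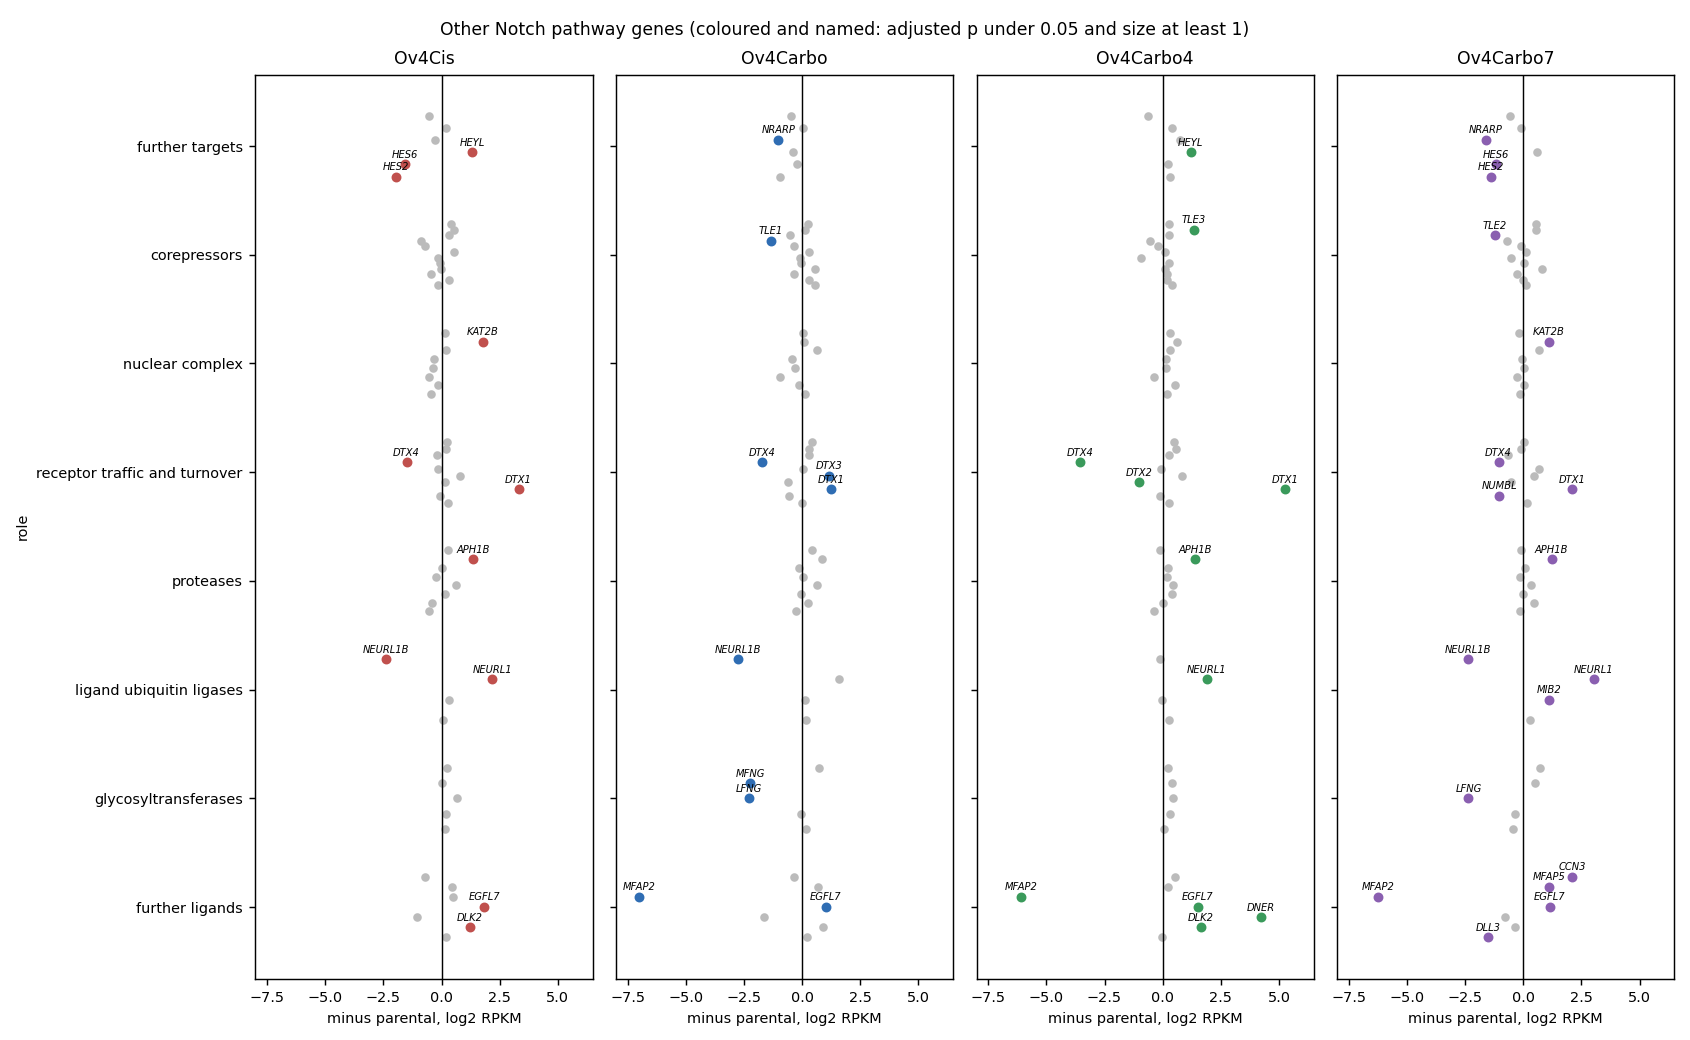
Difference of each resistant line from the parental line (horizontal axis, log2 RPKM) for the 60 other pathway genes, arranged by role; called genes are coloured and named, others are grey. DTX4 is lower and EGFL7 higher in all 4 lines, and APH1B is the only protease gene named.

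The proteases and the nuclear complex form the core that cuts the receptor and carries its signal. Moderated F-tests among the 5 lines passed for 5 of 8 protease genes, 8 of 8 genes of the nuclear complex and 11 of 12 corepressors. Of 8 protease genes 1 was called against the parental line in any line, which was APH1B, a gamma-secretase subunit. Its level rose by 1.37 in Ov4Cis (SE 0.20, limma adjusted p = 0.000191), in Ov4Carbo4 by 1.39 (adjusted p = 0.000182) and in Ov4Carbo7 by 1.22 (adjusted p = 0.000429), and in Ov4Carbo the difference was 0.86 (adjusted p = 0.00635), under the fold limit. On the log2(RPKM + 1) scale all 4 differences were under 1, from 0.50 to 0.87. Of the 8 genes of the nuclear complex, the only one called against the parental line was KAT2B, an acetyltransferase, named after its values were seen. It rose by 1.77 in Ov4Cis (SE 0.26, adjusted p = 0.000181) and in Ov4Carbo7 by 1.11 (adjusted p = 0.00442). Its line means on the log2(RPKM + 1) scale were 2.32 in the parental line, 3.87 in Ov4Cis and 3.26 in Ov4Carbo7. The Ov4Carbo7 difference was thus under 1 on that scale. RBPJ itself had line means from 4.27 ± 0.08 log2 RPKM in Ov4Cis to 4.89 ± 0.08 in Ov4Carbo4 (SD, n = 3).

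Of 4 ubiquitin ligases that act on ligands, 3 passed the F-test. NEURL1B, a ubiquitin ligase of the Neuralized family that promotes ligand uptake, was at 2.70 ± 0.08 log2 RPKM in the parental line and 2.60 ± 0.19 in Ov4Carbo4 (SD, n = 3). It fell by 2.40 in Ov4Cis (SE 0.25, limma adjusted p = 8.90e-06), by 2.74 in Ov4Carbo (adjusted p = 6.79e-06) and by 2.36 in Ov4Carbo7 (adjusted p = 1.13e-05). Ov4Carbo4 was higher than Ov4Carbo by 2.64 (adjusted p = 8.78e-06). Its relative NEURL1 was called higher in Ov4Carbo7 by 3.04 (SE 0.59, adjusted p = 0.00119), from uneven parental values with an SD of 1.65. As log2(RPKM + 1) that difference was 0.93. NEURL1 was also called higher in Ov4Cis and Ov4Carbo4. Its line means there were -0.46 and -0.76 log2 RPKM, against -2.65 in the parental line. On the log2(RPKM + 1) scale these means were 0.79, 0.67 and 0.29.

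LFNG, which encodes a Fringe glycosyltransferase that modifies Notch receptors, likewise differed between the single-cell lines, but unlike NEURL1B it was not low in Ov4Cis. Its line means were 0.16 ± 0.38 log2 RPKM in the parental line, 0.81 ± 0.48 in Ov4Cis and 0.61 ± 0.38 in Ov4Carbo4, against -2.11 ± 1.02 in Ov4Carbo and -2.19 ± 0.21 in Ov4Carbo7 (SD, n = 3). The difference between the single-cell lines was -2.81 (SE 0.42, limma adjusted p = 0.000142). As log2(RPKM + 1) it was -1.06. Against Ov4Carbo, Ov4Carbo4 was higher by 2.73 (adjusted p = 0.000328).

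Among further ligands, EGFL7, a secreted protein able to bind Notch receptors, was called higher in all 4 resistant lines. The rise was 1.84 in Ov4Cis (SE 0.25, limma adjusted p = 0.000102), 1.02 in Ov4Carbo (adjusted p = 0.00865), 1.51 in Ov4Carbo4 (adjusted p = 0.000493) and 1.14 in Ov4Carbo7 (adjusted p = 0.00307). As log2(RPKM + 1) the differences in Ov4Carbo and Ov4Carbo7 were under 1, at 0.76 and 0.86. Among the genes analysed, EGFL7 lies 2 genes away from NOTCH1. EGFL7 is also known from endothelial cells, whose 3 analysed markers had a summed RPKM of 32.3 to 40.9 in Ov4Cis, 6.37 to 7.40 in the parental line, 4.27 to 6.06 in Ov4Carbo, 20.7 to 25.2 in Ov4Carbo4 and 8.85 to 10.3 in Ov4Carbo7. Of these markers only CDH5 had line means of log2 RPKM 0 or more. CDH5 was at 5.13 in Ov4Cis, 4.42 in Ov4Carbo4 and 2.46 in the parental line. KDR was lower in Ov4Carbo4 (-3.65) than in the parental line (-1.88), and VWF was alike in them (-0.18 and -0.19). In Ov4Cis KDR was higher than in the parental line (-0.89) and VWF was not (-0.55). The part of these markers in the EGFL7 result was not tested. MFAP2, a microfibril protein, was near the floor in the same 3 lines as HEY2, but was not lower in Ov4Cis. It stood at -0.21 ± 0.36 log2 RPKM in the parental line and 0.31 ± 0.37 in Ov4Cis, against -7.23 ± 0.68 in Ov4Carbo, -6.29 ± 0.24 in Ov4Carbo4 and -6.43 ± 0.61 in Ov4Carbo7 (SD, n = 3). As log2(RPKM + 1) its falls from the parental line were under 1 in size, at -0.90, -0.89 and -0.89. DLK2 was called higher in Ov4Carbo4 and Ov4Cis, at 0.34 ± 0.10 and -0.08 ± 0.23 against -1.30 ± 0.40 in the parental line. It was at -0.38 ± 0.18 in Ov4Carbo and -1.64 ± 0.26 in Ov4Carbo7. DLL3 was lowest in Ov4Carbo7, at 0.22 ± 0.14 against 1.92 ± 0.41 in Ov4Carbo. CCN3 was highest in Ov4Carbo7, at 3.36 ± 0.16, while the 3 values of Ov4Carbo were spread with an SD of 1.60.

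Receptor turnover genes of the Deltex family, which encode ubiquitin ligases, moved in different directions. DTX4 was called lower in all 4 lines, by -1.50 in Ov4Cis (SE 0.24, limma adjusted p = 0.000384), -1.71 in Ov4Carbo (adjusted p = 0.00024), -3.56 in Ov4Carbo4 (adjusted p = 4.62e-07) and -1.06 in Ov4Carbo7 (adjusted p = 0.00407). As log2(RPKM + 1) the differences in Ov4Cis and Ov4Carbo7 were under 1 in size, at -0.96 and -0.71. DTX3 was called higher in Ov4Carbo, at 4.80 ± 0.30 log2 RPKM against 3.66 ± 0.25 in the parental line (SD, n = 3). The other resistant lines were above the parental line too but were not called. They stood at 4.46 ± 0.18 in Ov4Cis, 4.50 ± 0.25 in Ov4Carbo4 and 4.10 ± 0.15 in Ov4Carbo7.

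Of the further targets, HES6 was at 1.41 ± 0.21 log2 RPKM in Ov4Cis and 1.80 ± 0.08 in Ov4Carbo7 (SD, n = 3). It was at 2.79 ± 0.70 in Ov4Carbo, 2.99 ± 0.21 in the parental line and 3.21 ± 0.06 in Ov4Carbo4. HES6 was called lower than the parental line in both Ov4Cis and Ov4Carbo7. NRARP, which encodes a feedback inhibitor induced by Notch, and HEYL, the third HEY gene, were named after their values were seen. NRARP stood at 3.06 ± 0.13 in Ov4Carbo4, 2.33 ± 0.19 in the parental line, 2.04 ± 0.26 in Ov4Cis, 1.31 ± 0.20 in Ov4Carbo and 0.74 ± 0.13 in Ov4Carbo7. It was lower in Ov4Carbo7 than in Ov4Carbo4 by -2.32 (SE 0.15, limma adjusted p = 3.01e-07). HEYL exceeded the parental level in Ov4Cis by 1.33 (SE 0.22, adjusted p = 0.000382) and in Ov4Carbo4 by 1.20 (adjusted p = 0.000855). As log2(RPKM + 1) these differences were 0.56 and 0.49.

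Against Ov4Carbo, 10 of the 60 were called in Ov4Carbo4 (9 higher, 1 lower) and 5 in Ov4Carbo7 (3 higher, 2 lower), or 16.7% and 8.33% beside 14.2% and 13.3% of all genes. Without replicate 1 of Ov4Carbo the second count was 10, where 16.7% of all genes were called. Between the single-cell lines 13 were called, 3 higher and 10 lower in Ov4Carbo7, or 21.7% beside 20.9%. Ov4Cis had 7 called against Ov4Carbo, 6 higher and 1 lower, or 11.7% beside 13.8%.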

How the data were processed

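The authors deposited 1 table of log2 RPKM after conditional quantile normalization (cqn), as its name states, for 16604 genes and 15 samples. BWA 0.7.15-r1140, HTSeq, hg19 and GRCh37 are named, without roles, in the submitters' processing notes. The rule behind a threshold in the table's name is not given in the sources used here. Median values were alike in all samples, so total RNA content and depth cannot be read from them. Ensembl identifiers were given symbols from a supplied name table. GENCODE v29 and RefSeq (GRCh38) were used for gene order, overlaps and promoter sequence only.

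limma 3.58.1 (R 4.3.3; lmFit, eBayes, two-sided) fitted a linear model with 5 line coefficients to all genes and samples, with p-values adjusted by Benjamini-Hochberg over all genes within each of 8 contrasts, and was tested on simulated data. The 10 genes and the lists were chosen with earlier results of these data known. Other pathway genes were named when called the same way in at least 3 of 4 lines, or as the largest non-overlapping call of a contrast, with the higher line mean at least log2 RPKM 0. For the 4 of the 10 genes with the widest range, the 3 most correlated genes were named. Alternatives were a variance trend, quantile normalization, median centring, a filter on mean log2 RPKM 1, log2(RPKM + 1), a replicate block, a title series term, fits of only 2 lines, other thresholds, and leaving out each sample. Figures used Python 3.11.15 and matplotlib 3.10.9.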

Additional observations from a re-analysis of the deposited data

Results flagged for a closer look

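In the genes that follow, among the 10 genes and the other pathway genes named by rule, all samples of one resistant line lay above and all samples of another below the parental samples. HEY1 was above in Ov4Carbo (1.02 log2 units) and below in Ov4Cis (-1.20), and these lines differed by 2.23 (SE 0.33). HEY1 was also above in Ov4Carbo4 (2.60), 3.80 higher than in Ov4Cis, a difference that was not tested. NOTCH1 was above in Ov4Carbo4 (1.21) and below in Ov4Carbo7 (-0.54), a difference of 1.75 (SE 0.23) between the 2 lines. JAG2 did likewise (1.24 and -0.61), with a difference of 1.85 (SE 0.16). DLL1 was above in Ov4Cis (0.97) and below in Ov4Carbo (-2.59), with a difference of 3.56 (SE 0.47) in a gene near the lower end of the table. HES4 was below in Ov4Cis (-1.46) and above in Ov4Carbo4 (0.88) and Ov4Carbo7 (0.57), by 2.34 and 2.03 between lines. NOTCH2 was below in Ov4Cis (-0.30) and above in Ov4Carbo4 (0.22) and Ov4Carbo7 (0.39), by 0.51 and 0.68 between lines. DLL3 was above in Ov4Cis (0.20) and below in Ov4Carbo7 (-1.50), by 1.70. The differences between lines for HES4, NOTCH2 and DLL3 were not tested. NOTCH2 was also below in Ov4Carbo (-0.23), and its differences of Ov4Carbo4 (0.45) and Ov4Carbo7 (0.62) from Ov4Carbo were not called. The 4 differences with an SE passed the thresholds of the fit over all genes, and all comparisons with the parental line share its 3 samples.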

How the results depend on the processing

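The 80 differences of the 10 genes had 1104 alternative values. Of these, 37 moved by more than the replicate SD, 23 with a title series term and 14 on the log2(RPKM + 1) scale. With 3 replicates per line, a variance trend, a replicate block and fits of only 2 lines return the same differences. Leaving out 1 of 3 replicates cannot move a difference by that SD, so none of these fits could add to the 37. Direction was scored for called differences only, of which 0 reversed, so 1104 is not the number scored for direction. Counts of calls are given in the order Ov4Cis, Ov4Carbo, Ov4Carbo4 and Ov4Carbo7 against the parental line, then Ov4Carbo4 and Ov4Carbo7 against Ov4Carbo, Ov4Carbo7 against Ov4Carbo4, and Ov4Cis against Ov4Carbo. On the log2(RPKM + 1) scale the other pathway genes gave 4, 4, 3, 5, 4, 2, 6 and 4 calls (4.76% to 10.5% of all genes), and the 10 genes gave 1 in Ov4Cis and 3 in Ov4Carbo against the parental line and 1 in Ov4Carbo7 against Ov4Carbo. A filter at a mean log2 RPKM of 1, which removes HEY2 and DLL1, left the other pathway genes with 5, 5, 4, 11, 3, 3, 6 and 2 (6.06% to 13.7% of all genes kept), and the 10 genes gave 3 in Ov4Carbo and 1 in Ov4Carbo7 against the parental line, and 1 in Ov4Carbo7 and 3 in Ov4Cis against Ov4Carbo. With no fold limit the other pathway genes gave 25, 25, 22, 31, 25, 23, 32 and 20 (34% to 51.1% of all genes), and the 10 genes gave 5 in Ov4Carbo7 against the parental line. At an adjusted p under 0.01 the 10 genes gave 1 in Ov4Cis and 3 in Ov4Carbo against the parental line and 1 in Ov4Carbo7 against Ov4Carbo; with only the groups compared, the last 2 counts were also 3 and 1. A title series term gave 20 other pathway genes in Ov4Carbo4 against the parental line (17.9% of all genes). That term is set by Ov4Carbo replicate 1 against the other replicates of its line, and the cause of the higher count was not tested.

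Leaving out a sample, the 10 genes gave 3 to 5 calls in Ov4Carbo against the parental line (11.2% to 15.2% of all genes). In Ov4Carbo7 against the parental line they gave 2 to 4 (16% to 17.5%), with 4 without parental replicate 1. In Ov4Carbo7 against Ov4Carbo they gave 1 to 2 and the other pathway genes 4 to 10 (11.7% to 16.7%). The lower counts of Ov4Carbo came without parental replicate 2 or Ov4Carbo replicate 3. The 10 other pathway genes came without Ov4Carbo replicate 1 or Ov4Carbo7 replicate 2, and leaving out Ov4Carbo replicate 2 gave 8. Samples with the same replicate number did not deviate together (correlations -0.39 to 0.44 over 30 pairs, and 4 of 15 samples correlated best with their own number). With a replicate block the 10 genes gave 3, 5, 5, 2, 6, 2, 6 and 5 calls (12.3% to 20.7% of all genes), as without it. The F-test was then passed by 46 of the other pathway genes.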

Other observations

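Several low pathway genes were also uneven between lines. DTX1, a Deltex gene that Notch is known to induce, had line means of -5.32 ± 0.04 log2 RPKM in the parental line, -4.08 ± 0.74 in Ov4Carbo, -3.21 ± 0.58 in Ov4Carbo7, -2.01 ± 0.09 in Ov4Cis and -0.05 ± 0.17 in Ov4Carbo4 (SD, n = 3). It was called higher in all 4 resistant lines, yet on the log2(RPKM + 1) scale its differences from the parental line ran from 0.05 in Ov4Carbo to 0.94 in Ov4Carbo4, none of them of 1 log2 unit. HES2 was highest in Ov4Carbo4, at 0.81 ± 0.14, and lowest in Ov4Cis, at -1.47 ± 0.30. DTX1 and HES2 were named after their values were seen.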
